A study of Bos taurus with 6 samples.

Results

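Fatty acid and triglyceride synthesis was followed through 5 genes chosen by name and Ensembl identifier, namely ACACA (ENSBTAG00000017567), FASN (ENSBTAG00000015980), SCD (ENSBTAG00000045728), DGAT1 (ENSBTAG00000026356) and SREBF1 (ENSBTAG00000007884). Rows for 4 of them were found among the 27607 identifiers of the count table, all of which passed the filter on low counts, and SCD was not analysed here. The names come from the list that chose the genes. The deposited table holds identifiers only, and 0 of them were matched in the gene table used here.

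RNA was sequenced from fibro-adipogenic progenitor cells (FAPs), the interstitial cells of muscle that can form fat, and from satellite cells (SCs), the myogenic stem cells. Both came from the semitendinosus muscle of Belgian Blue cattle. They were separated by FACS from CD31- and CD45- cells as CD29+ and CD56- (FAPs) or CD29+ and CD56+ (SCs). The study as a whole used cattle of both sexes and differing age, and the sex and age behind each library were not available. FAPs and SCs were grown untreated on collagen in Ham's F-10 with 20% fetal bovine serum, 1% antibiotic and antimycotic mix and 5 ng/ml bFGF. The culture is given as 72 h from 2000 cells per cm2, and the paper describes 72 h on collagen before sorting. Each cell type has 3 libraries lettered A, B and C, and whether a letter stands for an animal or a culture is not given in the sources used here, so that p-values measure the spread between these libraries, which may be technical. The cells were proliferating, and no adipogenic medium was used, so the values describe progenitors and not adipocytes. Because identifiers are not paired with names, PDGFRA, PAX7 and other defining markers of either cell type could not be read from the table, nor could other genes of the pathway.

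Mammalian cells build fatty acids from acetyl-CoA. ACACA encodes acetyl-CoA carboxylase 1, which makes malonyl-CoA, and FASN encodes the fatty acid synthase that extends it to palmitate. SCD encodes stearoyl-CoA desaturase, which introduces the double bond of oleate, and DGAT1 encodes a diacylglycerol acyltransferase, which adds the last acyl chain of a triglyceride. SREBF1 encodes the transcription factor SREBP-1, known to act on genes of fatty acid synthesis including ACACA, FASN and SCD. In cattle, ACACA, FASN and SCD are well studied in the mammary gland and in adipose tissue.

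The libraries held between 19666738 and 37791193 counted reads, and a level of 3 counts corresponded to at most 0.153 CPM (read counts scaled to a common library size), far below every value given here. The 10 most counted genes took 23.2% of the reads in FAPs and 7.84% in SCs on average, so the scaling of the libraries matters for each gene. Levels are therefore given both as CPM on library sizes adjusted with TMM factors, which align the bulk of the genes between libraries, and as CPM on plain library totals. In each of 6 pairs of replicate libraries the counts differed beyond sampling noise (chi-square over its degrees of freedom, 3.97 to 27.0), and no library was taken as a duplicate.

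In proliferating cells the genes did not move together. DGAT1 was 2.81-fold higher in FAPs than in SCs on the TMM scale, SREBF1 was 1.60-fold higher and ACACA was 1.37-fold higher, whereas FASN was 1.32-fold lower (edgeR's quasi-likelihood test, 3 libraries of each cell type). The cutoffs for a call, taken from the study (log2 fold change beyond 1 in either direction, FDR below 0.05), were passed by DGAT1 alone on the TMM scale. Among all 14039 genes tested, 14.5% were called as higher in FAPs and 13.6% as lower, 28.1% in all, so that 1 of 4 genes is close to the background. On library totals 0 of the 4 genes were called, beside 36.2% of all tested genes (4 of the 4 had an unadjusted p under 0.05 with TMM factors and 2 of the 4 with library totals, and limma-voom and DESeq2 each called 1 of the 4 with their usual scaling). With the FDR as the only cutoff, 3 of the 4 genes were higher in FAPs and 1 was lower, beside 34.7% and 36.5% of all tested genes. The median log2 fold change of the 4 genes was 0.56 with TMM factors, beside -0.03 for all tested genes, and 0.03 with library totals, beside -0.57.

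**Figure D1:**
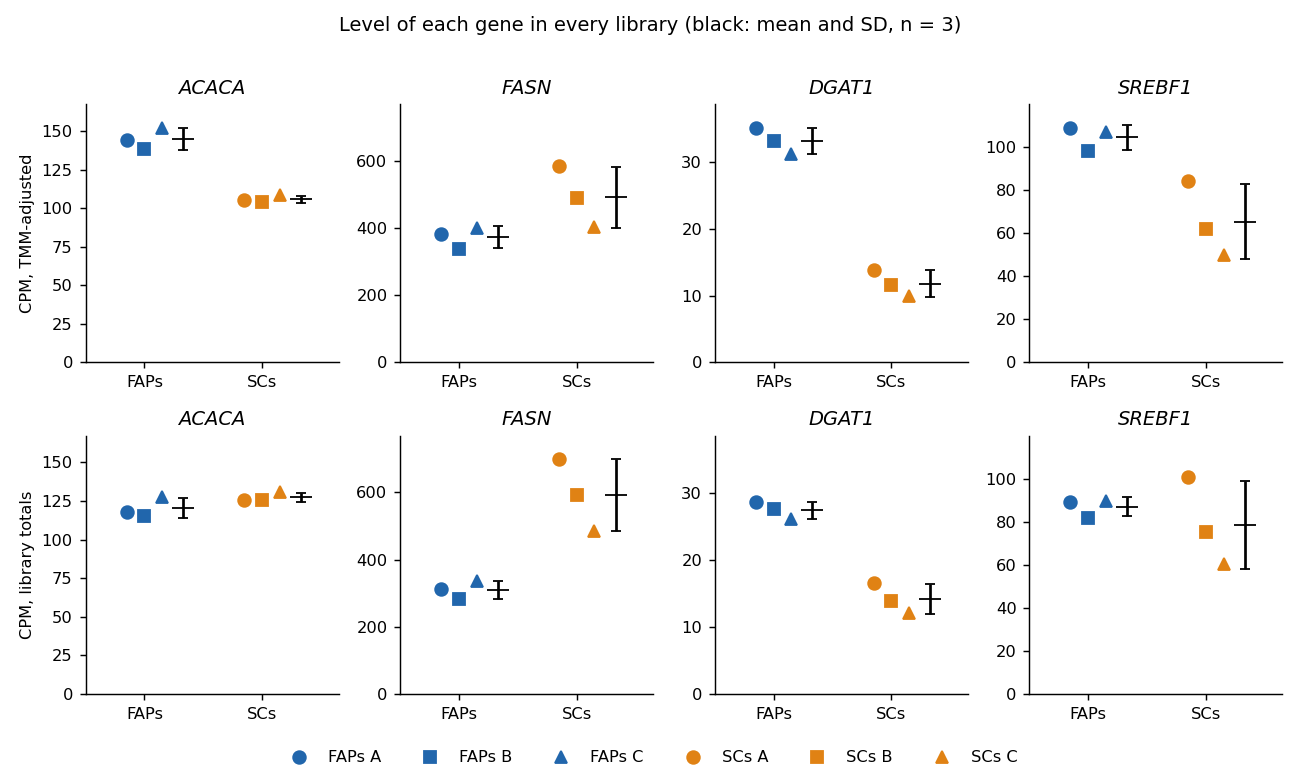
Level of each gene in CPM in the 3 FAP (blue) and 3 SC (orange) libraries, with TMM-adjusted library sizes in the upper row and library totals in the lower row; marker shapes give the letter of the library, and black marks give the mean and SD (n = 3). DGAT1 was higher and FASN lower in each FAP library than in each SC library on both scales, and ACACA and SREBF1 overlapped between the cell types on library totals only.

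The step that commits carbon to fatty acid synthesis is made by the ACACA product. On the TMM scale, ACACA stood at 143.9, 138.3 and 152.0 CPM in FAPs A, B and C, and at 105.2, 103.8 and 108.3 CPM in SCs A, B and C. The FAP libraries lay above all SC libraries, the lowest of them 1.28-fold above the highest SC library. No overlap in that direction was also seen in 36.5% of all tested genes. The means were 145 ± 6.87 CPM (SD, n = 3) in FAPs and 106 ± 2.29 CPM (SD, n = 3) in SCs. The log2 fold change, FAPs minus SCs, was 0.45 (SE 0.060, 95% interval 0.32 to 0.58, adjusted p = 2.71e-05 by edgeR's quasi-likelihood test, Benjamini-Hochberg), below the fold cutoff.
On library totals this difference was not seen. ACACA then read 118, 115 and 128 CPM in FAPs A, B and C, and 126, 126 and 131 CPM in SCs A, B and C, with overlapping groups, and the log2 fold change was -0.08 (SE 0.064, adjusted p = 0.232 by the same test). Whether a difference in ACACA is seen therefore rests on the scaling. On library totals without the 10 most counted genes, its log2 fold change was 0.19 (adjusted p = 0.0123 by edgeR's quasi-likelihood test). It was above 0 in 18 of 20 alternative fits, and the others used library totals. A change of scaling shifts the log2 fold changes of all genes by nearly the same amount, so a value taken relative to the median of all tested genes hardly depends on it by construction. On that relative scale ACACA lay at 0.49. Its log2 fold change of 0.45 with TMM factors was exceeded or equalled by 26.2% of all tested genes. The median absolute log2 fold change of all tested genes was 0.50.

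FASN was the only gene of the set with lower counts in FAPs, relative to library size, on both scales. On the TMM scale it stood at 381 CPM in FAPs A, 339 CPM in FAPs B and 401 CPM in FAPs C. The SC libraries read 584 CPM in SCs A, 489 CPM in SCs B and 402 CPM in SCs C. The groups did not overlap, as did not 38.0% of all tested genes in that direction, but FAPs C and SCs C were nearly equal, the latter being 1.003-fold higher. The means were 374 ± 31.6 CPM (SD, n = 3) in FAPs and 492 ± 91.3 CPM (SD, n = 3) in SCs. The log2 fold change was -0.40 (SE 0.114, 95% interval -0.65 to -0.15, adjusted p = 0.00765 by edgeR's quasi-likelihood test), which did not reach the fold cutoff.
The size of this difference depended on which SC library was used. Without SCs A the log2 fold change of FASN was -0.26 (adjusted p = 0.00872), without SCs C it was -0.52 (adjusted p = 3.21e-05), and without FAPs B it was -0.31 with an adjusted p of 0.0571, above the FDR cutoff (edgeR's quasi-likelihood test in each case). On library totals the difference was wider, with 312, 283 and 336 CPM in FAPs A, B and C and 698, 592 and 485 CPM in SCs A, B and C. Its log2 fold change on that scale was -0.93 (SE 0.111, adjusted p = 4.50e-06 by edgeR), close to the cutoff. A lower level at this FDR was found for 67.3% of all tested genes on library totals, and libraries without overlap in that direction for 67.2%. Relative to the median of all tested genes, FASN lay at -0.36. With TMM factors 29.9% of all tested genes had a lower log2 fold change than FASN, and the median absolute value was 0.50.

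DGAT1, whose product closes triglyceride assembly, had the widest difference of the 4 genes. On the TMM scale it stood at 35.1 CPM in FAPs A, 33.1 CPM in FAPs B and 31.2 CPM in FAPs C. In SCs it read 13.9 CPM in A, 11.5 CPM in B and 9.98 CPM in C. Every FAP library was at least 2.24-fold above every SC library, and 36.5% of all tested genes had no overlap in that direction. The means were 33.1 ± 1.96 CPM (SD, n = 3) in FAPs and 11.8 ± 1.97 CPM (SD, n = 3) in SCs. The log2 fold change was 1.49 (SE 0.113, 95% interval 1.24 to 1.74, adjusted p = 1.52e-07 by edgeR's quasi-likelihood test, Benjamini-Hochberg), which 9.46% of all tested genes exceeded or equalled. It passed a test against a 2-fold change (glmTreat in edgeR, adjusted p = 0.000553).
On library totals, DGAT1 read 28.7, 27.6 and 26.2 CPM in FAPs A, B and C against 16.6, 13.9 and 12.1 CPM in SCs A, B and C. The libraries still did not overlap, as in 18.6% of all tested genes in that direction. The log2 fold change on this scale was 0.96 (SE 0.110, adjusted p = 3.30e-06 by edgeR), just under the fold cutoff, and 18.0% of all tested genes were higher in FAPs at the same FDR. Relative to the median of all tested genes it was 1.53.

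SREBF1, the regulator of the set, was higher in FAPs on the TMM scale. It stood at 109 CPM in FAPs A, 98.0 CPM in FAPs B and 107 CPM in FAPs C, against 84.2 CPM in SCs A, 62.1 CPM in SCs B and 50.0 CPM in SCs C. The FAP libraries were alike and lay above all SC libraries, which were spread over a 1.69-fold range. Of all tested genes, 36.5% had no overlap in that direction. The means were 105 ± 5.83 CPM (SD, n = 3) in FAPs and 65.4 ± 17.4 CPM (SD, n = 3) in SCs. The log2 fold change was 0.68 (SE 0.143, 95% interval 0.36 to 0.99, adjusted p = 0.00108 by edgeR's quasi-likelihood test), below the fold cutoff. It was 0.91 without SCs A and 0.51 without SCs C.
On library totals, SREBF1 read 89.1, 81.8 and 89.8 CPM in FAPs A, B and C and 101, 75.1 and 60.3 CPM in SCs A, B and C. The FAP values fell inside the range of the SC values. The log2 fold change of 0.14 on this scale (SE 0.138, adjusted p = 0.342 by edgeR) did not pass the test. Relative to the median of all tested genes, SREBF1 lay at 0.71. With TMM factors its log2 fold change was exceeded or equalled by 20.1% of all tested genes.

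**Figure D2:**
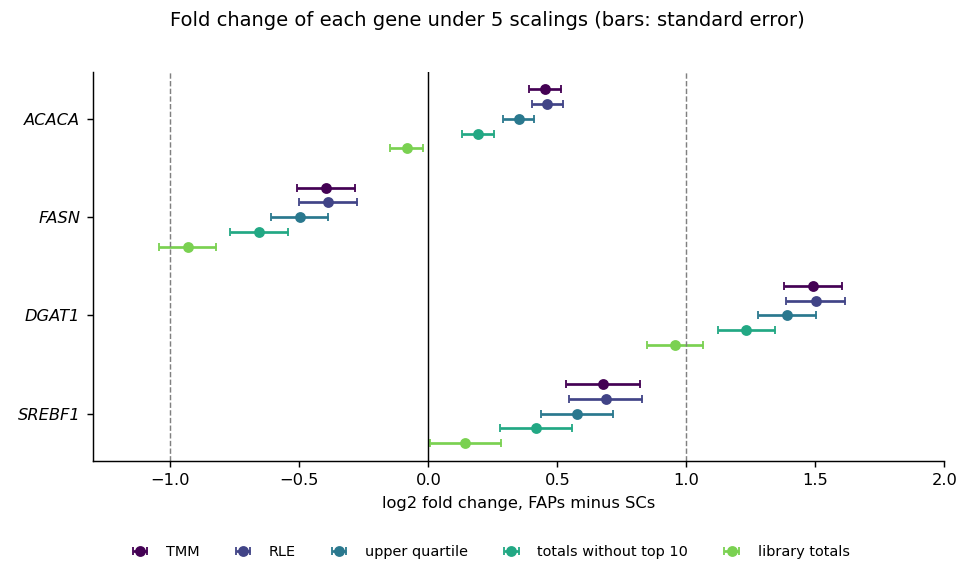
Log2 fold change (FAPs minus SCs) of each gene under 5 ways of scaling the libraries; bars give the standard error and dashed lines the cutoff of 1. DGAT1 moved from 1.49 with TMM factors to 0.96 with library totals and FASN from -0.40 to -0.93, and a change of scaling moved all 4 genes by nearly the same amount.

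A ratio of 2 genes within a library is independent of how libraries are scaled, and the length of the genes cancels when such a ratio is compared between cell types. The sizes of the ratios themselves depend on gene length and are not read here. The widest contrast was that of FASN with DGAT1, which follows from their having the lowest and the highest fold change of the set. For each read on DGAT1 there were 10.9, 10.2 and 12.8 reads on FASN in FAPs A, B and C, and 42.1, 42.5 and 40.3 in SCs A, B and C. The ratio of FASN to DGAT1 was thus 3.69-fold higher in SCs, and its log2 value was 3.49 ± 0.169 (SD, n = 3) in FAPs and 5.38 ± 0.041 (SD, n = 3) in SCs. The replicates within a cell type were close in comparison with the difference of 1.88 between them.

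FASN was also lower in FAPs relative to the other genes of the set. The ratio of FASN to SREBF1 was 2.13-fold higher in SCs, with 3.50, 3.46 and 3.74 reads on FASN per read on SREBF1 in FAPs A, B and C and 6.94, 7.88 and 8.04 in SCs A, B and C. The ratio of FASN to ACACA, the enzymes of consecutive steps, was 1.78-fold higher in SCs, with 2.65, 2.45 and 2.64 in FAPs A, B and C and 5.56, 4.71 and 3.71 in SCs A, B and C. DGAT1 was higher in FAPs relative to both remaining genes. The ratio of ACACA to DGAT1 was 2.07-fold higher in SCs and that of SREBF1 to DGAT1 1.73-fold higher.
The 6 pairs are formed from 4 genes, so they are not independent and restate the differences between the fold changes above. In 5 of the 6 pairs the libraries of the cell types did not overlap. This is near the background, since 76.2% of all pairs of the 13626 tested genes counted in every library did not overlap either. An exact two-sided permutation test of each of the 5 pairs gave p = 0.1 (0.12 after Benjamini-Hochberg adjustment over the 6 pairs), the smallest p that 3 libraries against 3 allow, so that no pair could pass at 0.05. The pair of ACACA and SREBF1 differed. Its log2 ratio lay between 0.40 and 0.51 in FAPs and between 0.32 and 1.12 in SCs, so that the FAP values fell inside the SC range (difference -0.26, exact permutation p = 0.4, adjusted p = 0.4). A difference between these 2 genes could not be shown with these libraries.

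**Figure D3:**
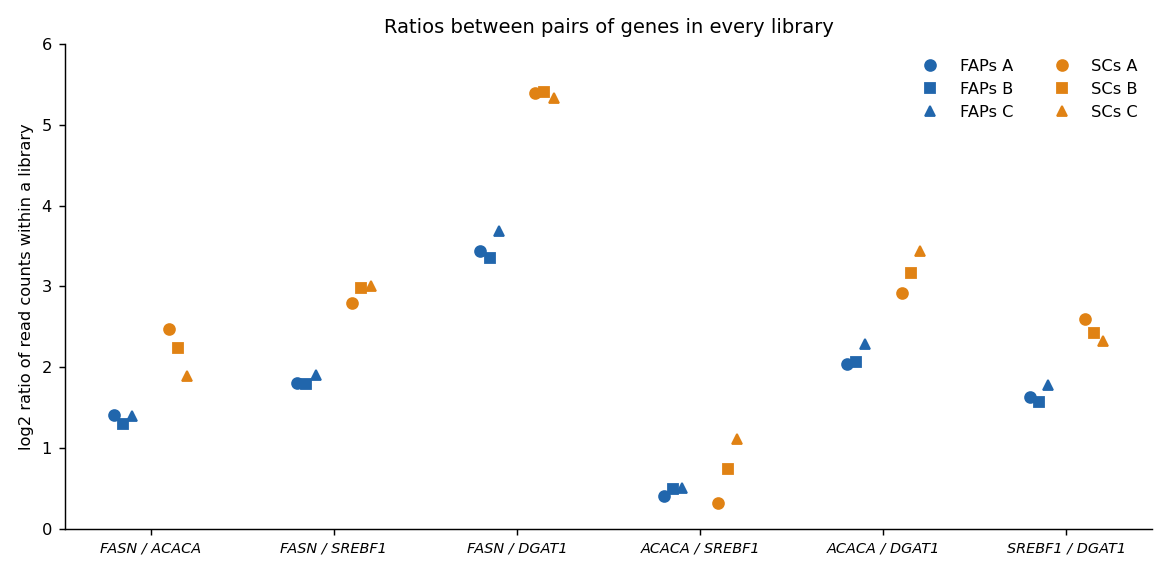
Log2 ratio of read counts for the 6 pairs of genes in each FAP (blue) and SC (orange) library, with marker shapes for the letter of the library. In 5 pairs the SC libraries lay above all FAP libraries, by 1.88 on average for FASN over DGAT1, and for ACACA over SREBF1 the FAP libraries fell within the SC range.

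The genes made up different shares of their summed counts in the 2 cell types. These shares restate the ratios above, are not independent of each other, and their sizes depend on gene length. The counts on the 4 genes added to 656 ± 42.8 CPM (SD, n = 3) in FAPs and 675 ± 109 CPM (SD, n = 3) in SCs on the TMM scale, a difference smaller than the spread between the SC libraries. On library totals the sums were 545 ± 36.1 CPM (SD, n = 3) in FAPs and 812 ± 127 CPM (SD, n = 3) in SCs, without overlap. On that scale 67.2% of all tested genes, taken singly, had no overlap in the same direction. Sums and shares over other sets of genes were not drawn. FASN took 56.9% ± 1.15 (SD, n = 3) of these reads in FAPs and 72.7% ± 1.95 (SD, n = 3) in SCs. The share of ACACA was 22.1% ± 0.622 in FAPs and 16.0% ± 2.84 in SCs, and that of SREBF1 was 16.0% ± 0.419 and 9.59% ± 0.994 (SD, n = 3 each). DGAT1 took 5.06% ± 0.487 (SD, n = 3) in FAPs and 1.75% ± 0.018 (SD, n = 3) in SCs.

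The replicate libraries of SCs varied more than those of FAPs in 3 of the 4 genes, and genes of like level did so too. On the TMM scale the coefficient of variation (CV) over libraries was 26.6% in SCs and 5.57% in FAPs for SREBF1, 18.6% and 8.45% for FASN, and 16.7% and 5.92% for DGAT1. For ACACA it was smaller in SCs, at 2.17% against 4.75% in FAPs. Counting error alone gave between 0.822% and 5.30%, and ACACA in SCs, where it was 1.76%, came nearest to it. The difference in spread between the cell types was not tested. Each gene was set beside the 500 tested genes nearest to it in mean level in the same cell type. The median CV of these was between 6.01% and 9.19% in SCs and between 3.45% and 4.80% in FAPs. In SCs, 99.4% of these had a smaller CV than SREBF1, 97.8% a smaller CV than FASN and 84.2% a smaller CV than DGAT1, whereas 92.0% had a larger CV than ACACA. In FAPs, 94.0% had a smaller CV than FASN, and between 66.6% and 75.4% had a smaller CV than the other genes.
SREBF1, FASN and DGAT1 were each highest in SCs A and lowest in SCs C, with a highest-to-lowest ratio of 1.69, 1.45 and 1.39. This order was common in these libraries and is not particular to the genes, as 27.6% of all tested genes had it. Of all tested genes, 9.05% had that order with at least the range of DGAT1, and 2.93% with at least the range of SREBF1. ACACA did not share the order and stayed between 103.8 and 108.3 CPM in the same libraries. In FAPs, FASN and ACACA were highest in C, and SREBF1 and DGAT1 in A. With 3 libraries in each cell type, no correlation between the genes is given.

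**Figure D4:**
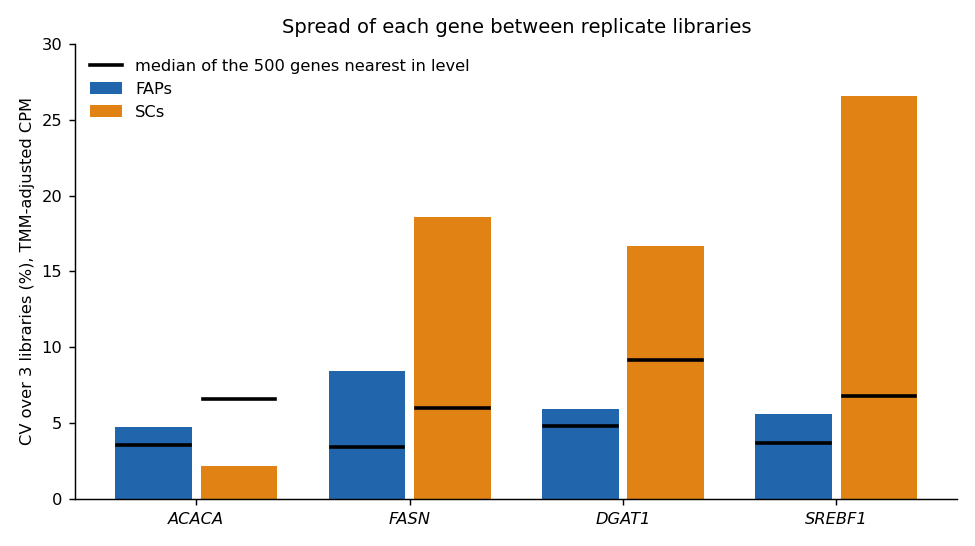
CV over the 3 libraries of each cell type, in percent of the mean TMM-adjusted CPM, for each gene in FAPs (blue) and SCs (orange); black lines give the median CV of the 500 genes nearest in mean level. In SCs the bars of SREBF1 (26.6%), FASN (18.6%) and DGAT1 (16.7%) stood above that median, and the bar of ACACA (2.17%) stood below it.

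Outside the set, the gene whose profile over the 6 libraries was nearest to DGAT1 was ENSBTAG00000000917, at a Euclidean distance of 0.082 between centred log2 CPM values. It stood at 474 ± 19.6 CPM (SD, n = 3) in FAPs and 171 ± 24.3 CPM (SD, n = 3) in SCs on the TMM scale. The gene nearest to FASN was ENSBTAG00000012041, at a distance of 0.099, with 28.4 ± 1.68 CPM (SD, n = 3) in FAPs and 38.1 ± 6.13 CPM (SD, n = 3) in SCs. Both were picked as the nearest of all tested genes outside the set, so their likeness follows from the choice, and shared regulation was not tested. Neither identifier is paired with a name here.

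The reads of bulk libraries carry limits for these genes. Fewer expressing cells and less RNA per expressing cell cannot be told apart. In the gene table of assembly ARS-UCD2.0, which is not the build of the files, DGAT1 overlaps HSF1, SREBF1 overlaps RAI1 and MIR33B, ACACA overlaps C19H17orf78 and 2 loci without a name, and FASN overlaps MIR10179. How reads on overlapping genes and on the opposite strand were assigned is not given in the sources used here, and the part of such reads in these values was not tested.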

How the data were processed

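Stranded poly(A) libraries (TruSeq stranded mRNA) of 3 FAP and 3 SC samples were sequenced as 75 bp single-end reads. Per the labels and methods, alignment by the authors used STAR 2.7 with bosTau9 (ARS-UCD1.2) and counting used featureCounts. They deposited raw counts per Ensembl identifier, unnormalized. Columns of other samples numbered 0. Library totals, from 19666738 to 37791193 counts, set the counting error, which covers counting only. The CV over libraries was above the counting error for each gene of the set in both cell types.

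Groups and letters follow the sample labels. Low genes were dropped by filterByExpr at a minimum count of 10, leaving 14039 of 27607. TMM scaling and a quasi-likelihood test followed (edgeR 4.0.16, R 4.3.3, prior count 0.125), in a model of cell type alone. The study used limma, which served as an alternative (limma 3.58.1 with voom), as did DESeq2 1.42.0, other scalings, filters and thresholds, thinning, a replicate block and leaving out each library. Calls needed a log2 fold change beyond 1 and an FDR below 0.05. Ratios were compared with exact permutation tests. The edgeR, limma-voom and DESeq2 fits were checked on simulated counts, but the permutation tests and the test against a 2-fold change were not. The simulated cell types did not differ in composition as these do, so that check does not bear on the scaling. The gene table (ARS-UCD2.0, 37063 genes) matched 0 identifiers, so coordinates, sequences, markers and wider gene lists fixed by symbol (synthesis, desaturation, activation, triglyceride assembly, regulators, sterols) could not be reported, and a planned promoter search was not run. All 5 genes were to be printed, with the nearest gene in profile to the highest and the lowest of them. SCD was not analysed here. The genes and lists were chosen with earlier results of these data known.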

Additional observations from a re-analysis of the deposited data

How the results depend on the processing

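DGAT1 was higher and FASN lower in FAPs in each of the 20 alternative fits, and SREBF1 was higher in each. These fits share libraries, and those that changed only the cutoff or the test kept the main estimate. For SREBF1 on library totals the difference of 0.14 did not pass the FDR cutoff (adjusted p = 0.342 by edgeR's quasi-likelihood test). Nor did its difference of 0.17 with limma-voom on library totals (adjusted p = 0.262 by limma-voom). With library totals the log2 fold change of ACACA turned to -0.084, that of DGAT1 fell short of the cutoff at 0.96, and 0 genes of the set were called, although DGAT1 and FASN passed the FDR there. On this scale 1286 of all tested genes were called as higher and 3794 as lower in FAPs, in place of 2035 and 1908, and the median over all tested genes moved from -0.03 to -0.57. The summed level of the set moved to 545 CPM in FAPs and 812 CPM in SCs. With limma-voom on library totals, an alternative chosen after seeing the data, ACACA was at -0.087 and DGAT1 at 0.97, with 0 genes of the set, 1290 higher and 3770 lower genes called. With the FDR as the only cutoff, FASN (-0.40), ACACA (0.45) and SREBF1 (0.68) were also called, which makes 4 of the set, beside 10001 of all tested genes (4871 higher, 5130 lower). This follows from dropping the fold cutoff.

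Leaving out each library in turn gave log2 fold changes from -0.52 to -0.26 for FASN, 0.44 to 0.51 for ACACA, 0.51 to 0.91 for SREBF1 and 1.38 to 1.64 for DGAT1, with DGAT1 called in each of the 6 fits. The difference in the log2 ratio of FASN to DGAT1 ran from -1.98 to -1.82 in those fits, and that of ACACA to SREBF1 from -0.46 (without SCs A) to -0.06 (without SCs C). Departures from the cell type mean were correlated across genes, which are not independent. The values were 0.075 between the A libraries, 0.0033 between the B libraries and 0.074 between the C libraries. Libraries of unlike letter were not compared, so these values cannot decide whether the letters pair the samples. With the letter as a replicate block, 3942 of all tested genes were called, and the log2 fold changes were -0.39 for FASN, 0.45 for ACACA, 0.70 for SREBF1 and 1.49 for DGAT1. Standard errors in that fit were 0.079 for FASN, 0.053 for ACACA, 0.084 for SREBF1 and 0.080 for DGAT1. In the main fit they were 0.114, 0.060, 0.143 and 0.113 in the same order, and whether the letters pair the samples was not tested. The planned comparisons for SCD were not run. Depth did not limit these genes, whose lowest count in a library was 274.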
